A study of Mus musculus with 2 samples.

Results

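Tumor-infiltrating neutrophils were described in single-cell RNA sequencing data of leukocytes from AT3 tumors, AT3 being a mouse mammary carcinoma line. A barcode was taken as a neutrophil when it held 500 to 7500 detected genes, at most 15% mitochondrial UMIs (unique molecular identifiers, each standing for 1 captured transcript), at least 20 UMIs of S100a8 and S100a9 together, at least 1 UMI of Csf3r, Retnlg and G0s2 together, at most 1 UMI of Cd3d, Cd3e and Cd3g together, and fewer than 30 UMIs of C1qa, C1qb and C1qc together. This rule found 100 neutrophils among 6363 barcodes that met the limits on genes and mitochondrial UMIs, out of 6742 barcodes in all. The WT library gave 40 of 3565 such barcodes and the 6PGDKO library 60 of 2798. Lowering the gene minimum to 200 added 0 barcodes in WT and 2 in 6PGDKO.

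The WT library came from Pgd fl/fl mice and the 6PGDKO library from Pgd fl/fl LysM-Cre mice, so the floxed allele of Pgd (6-phosphogluconate dehydrogenase) was shared by both. The Cre of the LysM-Cre line is driven from the Lyz2 locus and acts in cells that use it, mostly macrophages, monocytes and neutrophils. The Cre line was B6.129P2-Lyz2tm1(cre)Ifo/J. Female mice, 6 to 12 weeks old, received 500000 AT3 cells under the skin at the mammary fat pad and no drug that the labels name, and tumors were taken on day 30. Cells of 10 mice per genotype were pooled and sorted, each pool was tagged with an oligonucleotide (number 309 for WT, 310 for 6PGDKO), and both were loaded together. The methods name a sort of live CD45+ cells, whereas the sample labels name both CD45+ and live CD11b+ cells, and 1801 WT and 1234 6PGDKO barcodes passed a T cell gate. With 1 library per genotype no test between genotypes could be made, and every interval given here covers counting error only. The libraries shared 0 barcodes. Among the neutrophils the library's own oligonucleotide made up a median of 92.1% of oligonucleotide UMIs in WT (lowest 83.5%) and 90.8% in 6PGDKO (lowest 80.4%).

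Neutrophils are short-lived granulocytes that are released from the bone marrow and store antimicrobial proteins in granules made at successive steps of their maturation. They kill microbes with an oxidative burst, in which the phagocyte NADPH oxidase uses NADPH, and the pentose phosphate pathway, of which the Pgd product is an enzyme, is a source of NADPH. In tumors they can take on a state marked by chemokines, Siglecf, hypoxia genes and checkpoint molecules, and cells with suppressive activity are often called PMN-MDSCs (polymorphonuclear myeloid-derived suppressor cells).

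The genes of the rule and the other neutrophil markers were read together with those of other cell types. Levels are given in CPM, the UMIs of a gene summed over the cells of 1 library, divided by all gene UMIs of those cells and scaled to 1 common total. S100a8, which encodes a calcium-binding alarmin subunit, stood at 30973 CPM in WT and 28669 CPM in 6PGDKO neutrophils. Its partner S100a9 stood at 39894 and 40247 CPM. The cells were chosen by these values, together with those of Csf3r, Retnlg, G0s2, the Cd3 genes and the C1q genes, which are therefore a description. In the remaining gates, a monocyte gate (Ly6c2 with Ccr2 or Csf1r, 39 WT and 82 6PGDKO cells), a macrophage gate (at least 30 C1q UMIs, 573 and 512 cells) and a T cell gate (at least 3 Cd3 UMIs, 1801 and 1234 cells), neither gene passed 34.0 CPM. Transcripts of S100a8 were found in 1.28% of WT and 2.03% of 6PGDKO T cells, which should lack them.

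Among the neutrophil markers the rule did not use, Cxcr2, the receptor for neutrophil-attracting CXC chemokines, stood at 290 CPM in WT and 448 CPM in 6PGDKO neutrophils and at no more than 1.31 CPM in the 3 gates. Mmp9, a gelatinase of tertiary granules, stood at 452 and 383 CPM. Il1r2, the decoy receptor for IL-1, stood at 1645 and 1903 CPM and was also found in the macrophage gate, at 178 and 182 CPM. Ly6g, the gene of the antigen by which mouse neutrophils are commonly sorted, had 0 UMIs in WT and 6 in 6PGDKO, all 6 in 1 cell. Of the 9 neutrophil markers, 8 were detected in WT and 9 in 6PGDKO. Of the 4 eosinophil markers, Epx and Prg2 included, 0 UMIs were found in WT and 2 in 6PGDKO.

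Markers of other leukocytes were low but not absent. Over the 7 monocyte markers the neutrophils held 682 CPM in WT and 526 CPM in 6PGDKO, in 25 of 40 and 30 of 60 cells. Of these 80 and 81 UMIs, Ccr2 gave 1 and 0 and Fn1 0 and 1, and other markers of the list gave the rest. Without the barcodes over 5000 UMIs described further on, 55 UMIs were left in WT and 64 in 6PGDKO. Most of these were of Plac8, with 74 UMIs over both libraries. All 7 monocyte markers were at least 2-fold lower than in the monocyte gate in both libraries. Of them, Ly6c2, Ccr2 and Csf1r defined that gate, so for these the comparison is a description. Against the macrophage gate 2 of the 7 were at least 2-fold higher in each library, and 3 lower in WT and 4 in 6PGDKO. The 7 macrophage markers summed to 861 and 669 CPM, most of it Apoe at 477 and 416 CPM, a gene that stood at 234 and 318 CPM in T cells of the same libraries. The 7 T cell markers gave 9 UMIs in each library. The 6 B cell markers gave 111 UMIs in WT and 41 in 6PGDKO, but 12 UMIs (141 CPM) and 28 UMIs (220 CPM) without the barcodes over 5000 UMIs described further on. The heat map of markers by gate shows S100a8, S100a9, Cxcr2 and Mmp9 in the neutrophil columns. The monocyte, macrophage and T cell columns were gated on some of the genes shown, and the remaining lineages have no column.

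**Figure D1:**
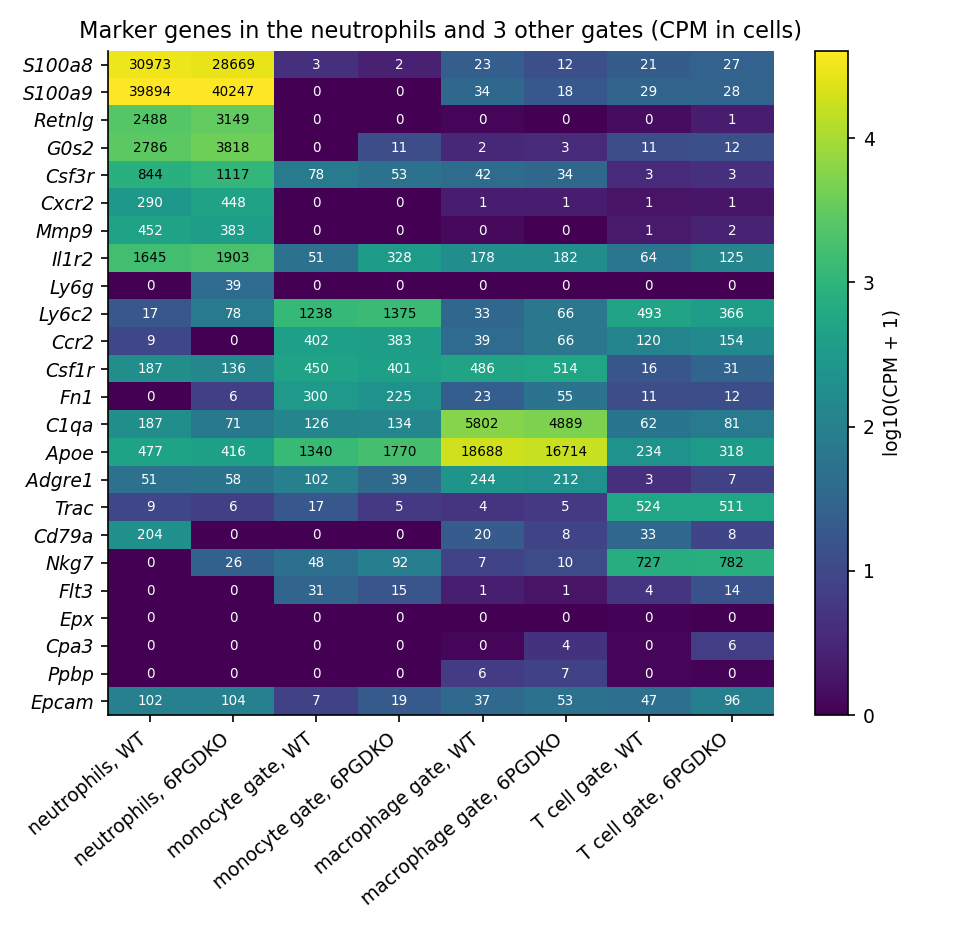
CPM of marker genes (rows) in the neutrophils, the monocyte, macrophage and T cell gates of each library (columns), with color on a log10(CPM + 1) scale and the CPM printed in each cell. S100a8 stood at 30973 CPM in WT and 28669 CPM in 6PGDKO neutrophils, and no value of S100a8 or S100a9 in the other gates passed 34.0 CPM.

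The limits of the rule left a gap at the S100 threshold. The lowest S100a8 and S100a9 sums inside were 35, 36 and 38 UMIs in WT and 24, 29 and 31 in 6PGDKO, and the highest outside, with the other limits met, were 19, 15 and 12 in WT and 19, 10 and 10 in 6PGDKO. For the C1q limit, WT values just inside were 29, 3 and 2 and just outside 33, 84 and 137, and 6PGDKO values were 6, 2 and 2 inside and 266 and 291 outside. A further 1 WT and 3 6PGDKO barcodes reached the S100 limit but had no UMI of Csf3r, Retnlg or G0s2, and 5 and 6 had more than 1 Cd3 UMI.

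The neutrophils were among the shallowest cells. Their median depth was 2277 UMIs in WT (1414 to 20126) and 2113 UMIs in 6PGDKO (1407 to 18747), against 5554 and 7926 UMIs over all barcodes that met the limits. The median number of detected genes was 844.5 in WT and 798 in 6PGDKO. All neutrophils of WT held 117360 UMIs together and those of 6PGDKO 153999.

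Barcodes above 5000 UMIs stood apart. In WT, 1 barcode of 20126 UMIs held 17.1% of all neutrophil UMIs of its library, with 705 UMIs of MHC class II genes, 29 of C1q genes and 27 of Mki67 and Top2a. A WT barcode of 6386 UMIs held 19 UMIs of the B cell genes Cd79a, Cd79b and Ms4a1, and one of 5454 UMIs held 17. In 6PGDKO, a barcode of 18747 UMIs, 12.2% of its library's neutrophil UMIs, had 801 MHC class II UMIs, and a barcode of 8161 UMIs had 5659 hemoglobin UMIs. These 5 barcodes carried markers of other cells beside neutrophil markers. No doublet caller was run, so the values that follow are from all neutrophils unless stated, and a gene's ratio between genotypes, or its UMIs, is also given without the 5 barcodes, which leaves 37 WT and 58 6PGDKO cells, where that changed its sign, its size by over 1.5 times or whether its interval held 0. The plot of depth against S100 share shows them to the right of the dotted line, at S100 shares of 3.67% or less.

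**Figure D2:**
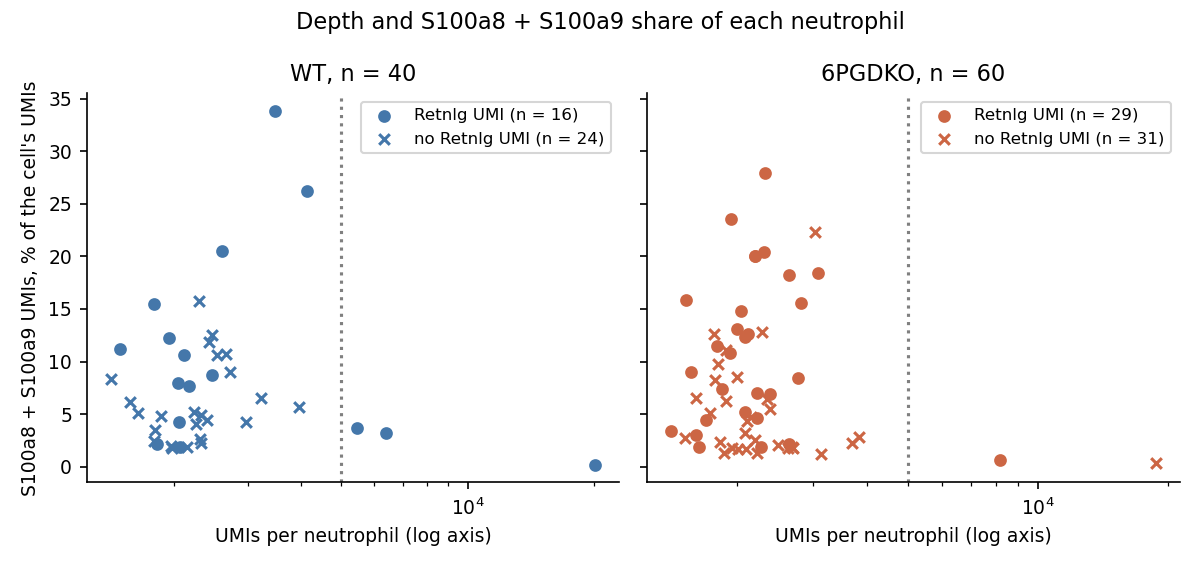
UMIs per neutrophil (x axis, log scale) against the share of S100a8 and S100a9 in the cell's UMIs (y axis, percent) for each of 40 WT and 60 6PGDKO neutrophils, with circles for cells with a Retnlg UMI and crosses for those without. The dotted line marks 5000 UMIs, and the 3 WT and 2 6PGDKO cells to its right hold the largest depths, up to 20126 UMIs.

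Neutrophils made up 1.12% of WT barcodes (exact Clopper-Pearson 95% interval 0.803 to 1.52%) and 2.14% of 6PGDKO barcodes (1.64 to 2.75%). These intervals did not overlap. Most other barcodes were lymphocytes, and among barcodes with at most 1 T cell and at most 1 B cell UMI the shares were 3.87% in WT (38 of 982, 2.75 to 5.27%) and 5.02% in 6PGDKO (60 of 1195, 3.85 to 6.42%), whose intervals overlapped. The sort sets which cells enter these denominators, and the spread between mice was not measured.

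The promoters of S100a8, S100a9 and Lcn2 are shown, the first pair because they chose the cells and lie close together on chromosome 3, the last because it separated neutrophils from each other and from the gates. The sequences come from RefSeq (GRCm38.p6, the mm10 build), run 5′ to 3′ on the gene's strand and span 250 bases before to 50 after the annotated start. Capitals mark matches to 2 motifs searched on both strands, TTGCNNAA for C/EBP factors and GAGGAAGT for PU.1, which reads ACTTCCTC on the opposite strand. The motifs do not overlap each other in these windows. S100a8 lies on the plus strand and S100a9 and Lcn2 on the minus strand.
S100a8 promoter, chr3:90668821-90669120: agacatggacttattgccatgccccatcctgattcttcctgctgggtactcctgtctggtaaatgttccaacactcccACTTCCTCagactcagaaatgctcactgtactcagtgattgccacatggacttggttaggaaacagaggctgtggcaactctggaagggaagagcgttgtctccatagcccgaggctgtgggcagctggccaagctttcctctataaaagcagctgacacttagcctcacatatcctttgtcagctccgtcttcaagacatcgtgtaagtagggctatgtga
S100a9 promoter, chr3:90695672-90695971: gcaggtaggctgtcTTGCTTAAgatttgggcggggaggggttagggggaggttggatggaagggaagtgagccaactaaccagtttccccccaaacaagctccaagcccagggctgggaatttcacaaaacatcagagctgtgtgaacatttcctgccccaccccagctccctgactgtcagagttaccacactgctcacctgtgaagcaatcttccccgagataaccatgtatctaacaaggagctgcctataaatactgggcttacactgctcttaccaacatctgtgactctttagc
Lcn2 promoter, chr2:32387690-32387989: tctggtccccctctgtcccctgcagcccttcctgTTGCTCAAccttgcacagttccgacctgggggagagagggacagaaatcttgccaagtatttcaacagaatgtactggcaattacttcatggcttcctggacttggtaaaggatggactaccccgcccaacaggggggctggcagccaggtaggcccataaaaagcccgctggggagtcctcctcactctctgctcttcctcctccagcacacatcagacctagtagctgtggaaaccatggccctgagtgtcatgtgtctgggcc
The C/EBP letters were found in 3 of 9 promoter entries of the neutrophil markers and in 4 of 8 of the secondary granule genes, against 3547 of all 32851 promoters in the table (10.8%). The PU.1 letters were found in 3 of 9 and 2 of 8, against 1052 of 32851 (3.20%). Among the genes that stood highest over both gates without the deep barcodes, described further on, 1 of 12 held the C/EBP letters and 0 of 12 the PU.1 letters. The 9 marker entries include 2 of Ly6g, whose windows overlap. A match is a description of the sequence and says nothing of binding.

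Pgd, the gene targeted in the study (chr4:149149991-149166705, GRCm38.p6), was thinly counted in neutrophils. It had 8 UMIs in 8 of 40 WT cells, 68.2 CPM (exact Poisson 95% interval 29.4 to 134), and 4 UMIs in 3 of 60 6PGDKO cells, 26 CPM (7.08 to 66.5). The log2 ratio of 6PGDKO over WT was -1.39 (95% interval -3.57 to 0.51). A difference of Pgd was therefore not detectable at this depth in neutrophils, where the interval held 0. In the same libraries the monocyte gate gave -2.08 (-3.04 to -1.17), the macrophage gate -1.98 (-2.22 to -1.74) and T cells 0.17 (-0.06 to 0.40). The neutrophil interval contained the values of both myeloid gates, and also that of T cells. Which exons the floxed allele removes, and whether the counted transcript ends lie in them, is not given in the sources used here.

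Lyz2, which encodes lysozyme and is the locus that carries the Cre (chr10:117277541-117282272), had 59 UMIs in WT and 10 in 6PGDKO neutrophils, 503 and 64.9 CPM. It was lower in 6PGDKO with a log2 ratio of -2.95 (-4.09 to -1.97), and -3.06 without the 5 deep barcodes. It was found in 21 of 40 WT cells (at most 17 UMIs) and 9 of 60 6PGDKO cells (at most 2), so single cells of both libraries overlapped at low counts. The T cell gate, which should lack lysozyme, held 102 CPM in WT and 6.19 CPM in 6PGDKO, where 9.94% of WT cells (median depth 5180 UMIs) and 4.86% of 6PGDKO cells (6069 UMIs) had a UMI. WT monocytes and macrophages held more of it than neutrophils, 9674 and 3298 CPM, and their 6PGDKO counterparts 22.6 and 12.1 CPM.

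Neutrophils were next set against the monocyte and macrophage gates within each library, which asks what sets them apart from the other myeloid cells of the same tumors. Of 772 genes with at least 50 UMIs in neutrophils, outside the rule's own genes, 214 (27.7%) were at least 2-fold higher than in the monocyte gate in both libraries and 104 (13.5%) at least 2-fold lower. Against the macrophage gate 260 (33.7%) were higher and 68 (8.81%) lower. Without the 5 deep barcodes, 622 genes reached 50 UMIs, and 215 (34.6%) were higher and 94 (15.1%) lower than in monocytes, 264 (42.4%) higher and 86 (13.8%) lower than in macrophages. The minimum of 50 UMIs counts neutrophil UMIs only, so genes high in a gate and low in neutrophils could not enter, and the counts of higher and lower genes cannot be set against each other.

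The 15 genes that stood highest over both gates in both libraries included Acod1, Mmp9, Hdc, Stfa2l1, Cxcr2, Asprv1, Wfdc21, Ankrd33b, Sh2d3c, Trem1, H2-Q10, Pglyrp1, Igf1r and Cstdc4. Acod1, which makes itaconate, stood at 2071 CPM in WT and 1831 CPM in 6PGDKO neutrophils, with log2 ratios over the 2 gates of 5.64 to 7.66. Hdc, the histamine-forming histidine decarboxylase, stood at 1619 and 1942 CPM and was found in 38 of 40 and 55 of 60 neutrophils. These genes were seen in most neutrophils of both libraries, whereas others of the 15 were seen in a minority. Mmp9 had 53 and 59 UMIs against 0 in both monocyte gates, which set against 3 UMIs makes it higher by a log2 ratio of at least 5.46 in WT and 6.30 in 6PGDKO. Stfa2l1, a stefin A-like protease inhibitor, had 50 and 61 UMIs in 32.5% and 26.7% of cells and 0 in every gate compared. Stfa2l1 and Cstdc4 belong to a cluster of near-identical genes on chromosome 16, among which counting can divide reads. Trem1, an amplifier of inflammatory signaling, stood at 809 and 1084 CPM. Without the 5 deep barcodes the same rule named Lcn2 in place of Igf1r.

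Gene lists were compared the same way, without the deep barcodes. The 12 genes of mature circulating neutrophils, such as Mxd1 and Msrb1, took 0.925% of WT and 1.02% of 6PGDKO neutrophil UMIs and stood above the monocyte gate by 2.53 and 2.33 and above the macrophage gate by 3.49 and 3.32 on the log2 scale. Chemokines took 3.28% and 3.17% of UMIs, 2.90 and 2.60 above monocytes. Cxcl2, the chief neutrophil-attracting chemokine here, made up most of this. Of the genes measured, 4 of 8 were at least 2-fold higher and 3 lower in WT, and 5 of 10 higher and 3 lower in 6PGDKO, with medians of 1.06 and 0.48. The lower ones in both libraries were Cxcl9, which draws T cells, at 35.1 and 47.2 CPM against 631 and 881 CPM in monocytes, the membrane-bound chemokine Cxcl16, at 23.4 and 78.7 against 358 and 676 CPM, and Ccl9, at 164 and 7.87 against 409 and 365 CPM. These rest on 9, 12 and 15 neutrophil UMIs over both libraries. The 14 survival and apoptosis genes, led by Gadd45b, Mcl1 and Pim1, were 1.96 and 1.78 above monocytes. In the other direction all 7 MHC class II genes measured were at least 2-fold lower than in both gates in both libraries, at 0.123% and 0.149% of neutrophil UMIs against 2.90% and 2.8% in monocytes. With all neutrophils they took 0.849% and 0.664%, log2 ratios of -1.77 and -2.08 to monocytes. There 7 of 7 in WT and 6 of 7 in 6PGDKO were at least 2-fold lower than in each gate. The 13 mitochondrially encoded genes took 0.990% and 1.16% against 1.85% and 2.15% in monocytes. With all neutrophils they took 1.90% in WT, a log2 ratio of 0.04 (-0.03 to 0.11) to monocytes, and 1.22% in 6PGDKO, a ratio of -0.81 (-0.88 to -0.74), so that the WT difference from monocytes was not seen with the deep barcodes. The phagocyte oxidase list gave -0.09 and -0.13 against monocytes, with intervals that held 0, but -0.32 (-0.50 to -0.14) and -0.32 (-0.48 to -0.16) with all neutrophils. The pentose phosphate list gave -0.26 and -0.12, again with intervals that held 0. With all neutrophils it gave -0.40 (-0.70 to -0.10) in WT, and -0.24 (-0.49 to 0.00) in 6PGDKO, where the interval still held 0.

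Granule genes were unevenly covered. All 5 primary granule genes, Mpo, Elane, Prtn3, Ctsg and Ms4a3, which are made in promyelocytes, had 0 UMIs in both libraries, which allows up to 3 UMIs of 117360 and 153999. Of the 10 secondary granule genes, Camp and Orm1 had 0 UMIs, Ngp 0 and 1, and Ltf 3 and 6. Lcn2, which encodes the iron-siderophore-binding lipocalin, had 57 UMIs in 11 of 40 WT cells and 34 UMIs in 14 of 60 6PGDKO cells. Tertiary granule and secreted genes were better covered, with Slpi, a secreted protease inhibitor, at 1201 and 1292 CPM.

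Neutrophils differed widely from one another. Among the cells of at most 5000 UMIs, S100a8 and S100a9 together took from 1.77% to 33.8% of a WT cell's UMIs (median 6.16%, n = 37) and from 1.22% to 27.9% in 6PGDKO (median 6.30%, n = 58). Retnlg, a resistin-like secreted protein of mature neutrophils, was found in 13 of these WT cells and 28 of these 6PGDKO cells, with 1 WT cell holding 143 of their 280 Retnlg UMIs. Median depth was 2060 and 2302 UMIs with and without Retnlg in WT, and 2106 and 2103 in 6PGDKO. Cells with Retnlg held fewer detected genes, a median of 735 against 937.5 in WT and 739 against 879 in 6PGDKO, and the part of this in the differences of the split was not tested.

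Cells with a Retnlg UMI were compared with cells without one in each library. As Retnlg helped choose the cells, and all genes come from the same cells, these are descriptions. Of 622 genes with at least 50 UMIs, 18 (2.89%) were at least 2-fold higher in the cells with Retnlg in both libraries and 43 (6.91%) at least 2-fold lower. Lcn2 was higher by a log2 ratio of 4.43 (2.98 to 6.36) in WT and 2.41 (1.11 to 3.97) in 6PGDKO. Slpi was higher by 2.82 and 2.10 and Wfdc21, a whey acidic protein-type gene, by 2.54 and 2.77. Cxcr2 was higher by 1.54 and 1.66. The 12 genes of mature circulating neutrophils together were higher by 0.70 (0.49 to 0.90) in WT and 0.29 (0.13 to 0.45) in 6PGDKO, both under 2-fold. Taldo1, the transaldolase of the pentose phosphate pathway, was also among the 18 higher genes. It had 55 UMIs against 21 in WT and 80 against 41 in 6PGDKO, a log2 ratio of 2.26 and 1.15.

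Genes lower in the cells with Retnlg included Icam1, an adhesion molecule induced by inflammation, by -2.09 in WT and -1.97 in 6PGDKO, the cytokine gene Mif by -2.13 and -2.24, the fatty acid carrier Fabp5 by -1.93 and -3.10, the regulator of chemokine receptor signaling Rgs1 by -1.84 and -4.63, and Il1a by -1.63 and -3.94. For the Il1a ratio in WT the interval held 0 (-4.04 to 0.16). Siglecf, a lectin known from eosinophils and from neutrophils of lung tumors, had 0 UMIs in cells with Retnlg in both libraries, against 13 UMIs in the other WT cells and 7 in the other 6PGDKO cells. Ccl3 and Ccl4, chemokines for monocytes and T cells, were lower by -0.65 and -0.84 in WT and by -1.70 and -1.73 in 6PGDKO. The 18 tumor-associated neutrophil genes together gave -0.61 (-0.79 to -0.44) and -0.95 (-1.10 to -0.81), and the hypoxia list -0.79 and -1.05. Secondary granule genes together gave 1.76 and 0.87 and tertiary granule genes 1.95 and 1.5. In WT, Lcn2 gave 47 of the 76 secondary granule UMIs in cells with Retnlg and 4 of the 41 in the others. Members on the other side were Cd177, a surface protein of neutrophils, at -1.13 (-6.75 to 2.21) and -1.23 (-3.77 to 0.83) on 16 UMIs in all, Olfm4, with all its 30 UMIs in 6PGDKO cells without Retnlg, and Chil3, with 0 against 8 UMIs in 6PGDKO.

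Mitochondrially encoded genes together were lower in the cells with Retnlg, at -2.79 (-3.18 to -2.41) in WT, 0.206% of UMIs with Retnlg and 1.42% without, and -0.70 (-0.85 to -0.54) in 6PGDKO. The part of this difference in the other values of the split was not tested. Some lists did not have the same sign in both libraries. Interferon-stimulated genes were higher in the WT cells with Retnlg, by 1.14 (0.95 to 1.33), and gave -0.15 (-0.31 to -0.00) in 6PGDKO. The list of lipid mediators and iron handling genes gave 0.43 and -0.38. The secondary granule gene Mmp8 had 32 of its 34 UMIs in 6PGDKO cells with Retnlg, and 1 of 5 in WT. With 13 WT cells in the first group, single cells weighed heavily in these values.

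Across cells, the share of the tumor-associated list and that of S100a8 and S100a9 had Spearman correlations of -0.48 in WT (n = 37) and -0.48 in 6PGDKO (n = 58), and the secondary granule list and S100 share 0.53 and 0.55. All points of a correlation come from 1 library and are shares of the same total, in which S100a8 and S100a9 alone reached 33.8%, so a large share of 1 gene lowers the others. The plot of tumor-associated genes against S100 share shows that the cells with the largest S100 shares, 33.8% in WT and 27.9% in 6PGDKO, had 0.288% and 0.129% of the list, and that 3 WT cells at 7.56% to 11.4% of the list stood above all others.

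**Figure D3:**
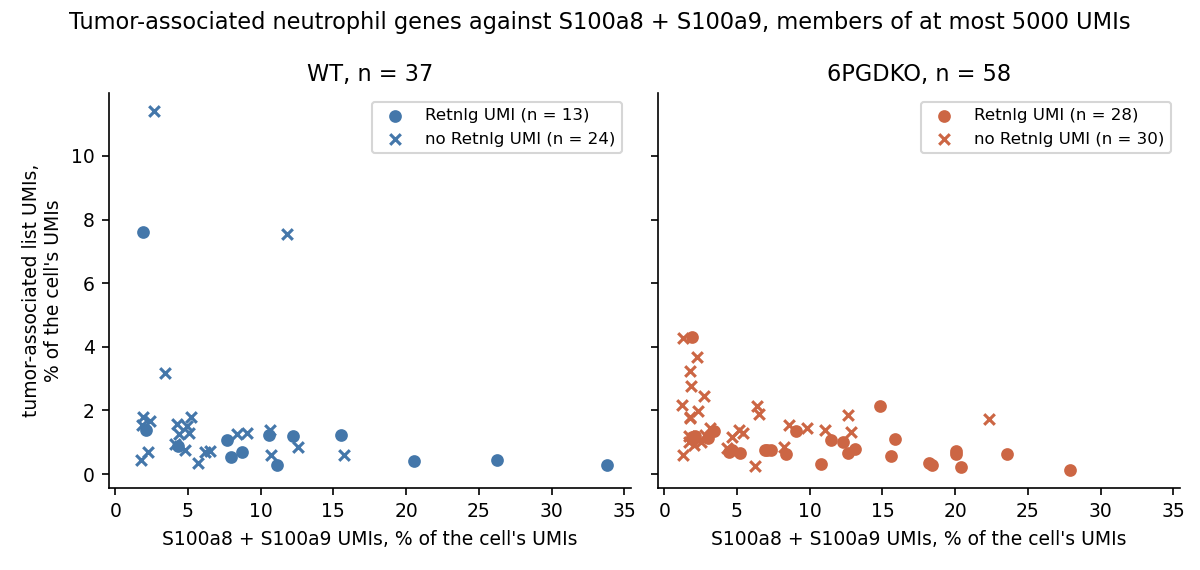
S100a8 and S100a9 UMIs (x axis) against UMIs of the 18 tumor-associated neutrophil genes (y axis), both as percent of the cell's UMIs, for 37 WT and 58 6PGDKO neutrophils of at most 5000 UMIs, with circles for cells with a Retnlg UMI and crosses for those without. The Spearman correlation was -0.48 in both libraries, and 3 WT cells reached 7.56% or more of the list.

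Between genotypes, 1761 genes had at least 20 UMIs over both libraries and their median log2 ratio, 6PGDKO over WT, was -0.04. Of these, 113 (6.42%) were at least 2-fold higher in 6PGDKO and 144 (8.18%) at least 2-fold lower, either direction 14.6%. The counting interval left out 0 for 80 (4.54%) and 100 (5.68%). Without the 5 deep barcodes, 1400 genes were measured, 107 (7.64%) were higher and 72 (5.14%) lower, 66 (4.71%) and 57 (4.07%) of them with an interval that left out 0, so that the lower genes outnumbered the higher ones with the deep barcodes and the reverse held without them. With 1 pool per genotype, a difference between genotypes and one between pools cannot be told apart.

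The 12 genes furthest up, among genes in at least 10 cells, of at least 30 UMIs and with no cell above 25% of them, included Hmox1, Rgcc, Tbc1d15, Cstdc4, Slc2a3, Cxcl3, Slc23a2, Mmp8, Plk2, Paip2 and Homer1. Hmox1, heme oxygenase, had 4 UMIs in 3 of 40 WT cells and 26 UMIs in 11 of 60 6PGDKO cells, a log2 ratio of 2.31 (0.78 to 4.29). Rgcc, a cell cycle regulator, had 6 UMIs in 3 WT cells and 36 in 17 6PGDKO cells, a ratio of 2.19 (0.93 to 3.73). Cxcl3, a ligand of Cxcr2, had 13 UMIs in 6 WT cells and 66 in 17 6PGDKO cells, a ratio of 1.95 (1.08 to 2.93). In most cells of both libraries these genes had 0 UMIs, so the difference lay in a minority of 6PGDKO cells. Slc2a3, the glucose transporter GLUT3, had 5 UMIs in 5 WT cells and 26 in 18 6PGDKO cells, a ratio of 1.99 (0.58 to 3.72). Mmp8, neutrophil collagenase, had 7 UMIs in 3 WT cells and 34 in 15 6PGDKO cells, a ratio of 1.89 (0.69 to 3.31). Cstdc4 had 19 and 99 UMIs in 7 and 12 cells, with the doubt about near-identical copies given above. All 12 kept a ratio of at least 1.20 without the deep barcodes, where the interval of Plk2 held 0 (-0.05 to 2.66).

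The 12 genes furthest down were Lyz2, Sri, Cox7a2l, Psmb1, Rel, Cyth4, mt-Nd5, Bsg, Atg3, Atp5g2, Il13ra1 and Nedd9. Sri, the calcium-binding protein sorcin, had 30 UMIs in 17 WT cells and 11 in 11 6PGDKO cells, a ratio of -1.84 (-2.98 to -0.80). Rel, an NF-kappaB subunit, had 53 UMIs in 23 WT cells and 26 in 15 6PGDKO cells, a ratio of -1.42 (-2.16 to -0.72). No cell held more than 8 UMIs of either gene. The mitochondrial gene mt-Nd5 gave -1.31 with all neutrophils and -0.29 (-1.40 to 0.84) without the deep barcodes, where Psmb1, a proteasome subunit, had an interval that held 0 (-3.17 to 0.11). The other 10 kept ratios of -1.16 or lower there.

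**Figure D4:**
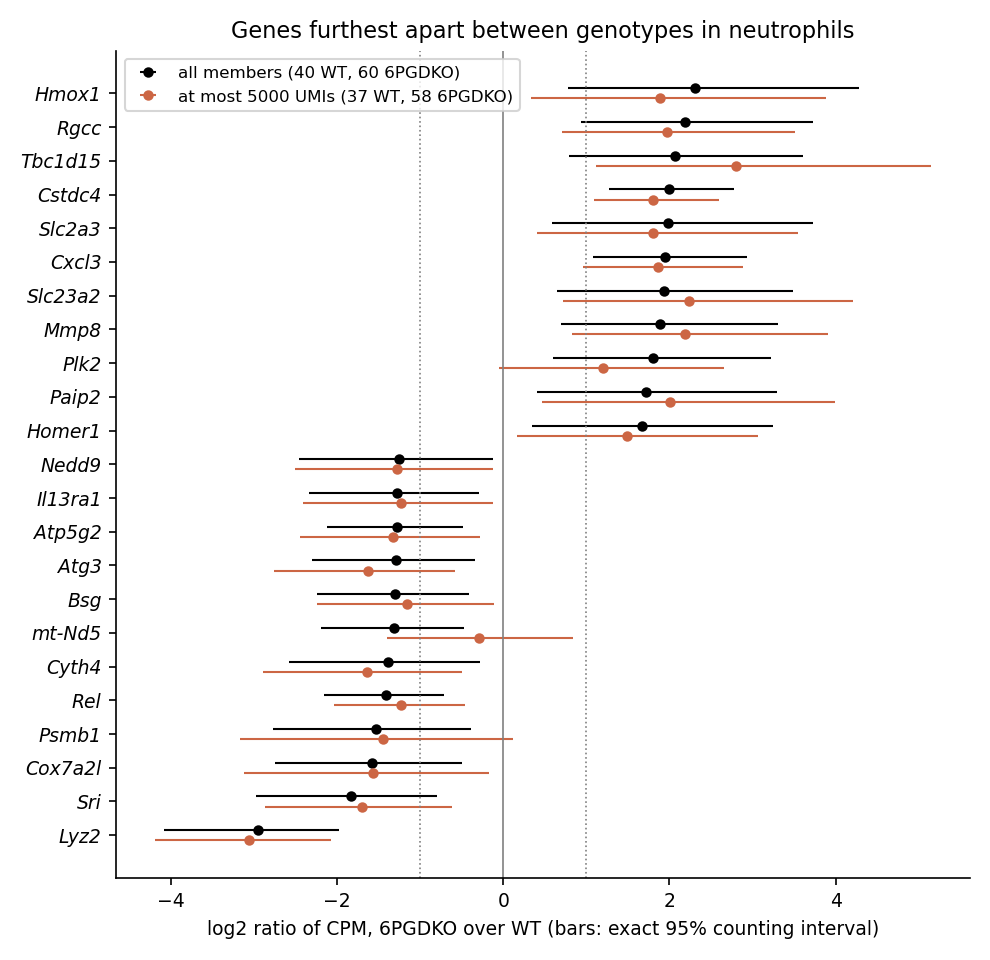
Log2 ratio of CPM, 6PGDKO over WT (x axis), of genes among the 12 furthest up and the 12 furthest down in neutrophils (y axis, 1 gene furthest up left out), with bars for the exact 95% counting interval, for all 40 WT and 60 6PGDKO cells (black) and for the 37 and 58 of at most 5000 UMIs (orange). Hmox1 is at 2.31 and Lyz2 at -2.95, and mt-Nd5 moves from -1.31 to -0.29 without the deep barcodes.

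Among granule genes, 2 of the 4 secondary granule genes with at least 20 UMIs were at least 2-fold higher in 6PGDKO and 1 lower. Mmp8 is given above. Olfm4, a glycoprotein found in a subset of neutrophils, had 0 UMIs in WT and 30 in 6PGDKO, in 2 cells that held 22 and 8, and set against 3 UMIs in WT the counted UMIs gave a log2 ratio of 2.93. Its exact 95% interval began at 2.54, and at 0.41 without the top cell. Lcn2 was lower, with 486 CPM in WT and 221 CPM in 6PGDKO, a log2 ratio of -1.14 (-1.79 to -0.50). Its UMIs per cell ran up to 14 in WT and 12 in 6PGDKO, and the median cell had 0 in both. Of 8 tertiary granule and secreted genes, 4 were above and 4 below 0 and only Lyz2 passed 2-fold. Wfdc17, a secreted regulator of inflammation, gave -0.59 (-0.92 to -0.25).

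Of 10 genes of mature circulating neutrophils, 7 lay above 0 and 3 below, with a median of 0.26, and 0.16 without the deep barcodes, against -0.04 for all genes, and 1, Slc2a3, passed 2-fold. Cxcr2 had 34 UMIs in 20 of 40 WT cells and 69 in 27 of 60 6PGDKO cells, a log2 ratio of 0.63 (0.02 to 1.27), and 0.56 (-0.07 to 1.22) without the deep barcodes. Mxd1, a MYC antagonist, gave 0.35 (0.09 to 0.61). The differences of Cxcr2 and Mxd1 were under 2-fold.

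The 18 tumor-associated neutrophil genes summed to a log2 ratio of -0.18 (-0.28 to -0.09), and -0.26 (-0.36 to -0.16) without the deep barcodes, with 7 genes above and 11 below 0. This direction rested on 3 WT cells, which held 603 of the 1551 WT UMIs of the list. Without the 3 cells of the highest list share in each library the ratio was 0.23 (0.11 to 0.35), an alternative chosen after the data were seen. The median cell of at most 5000 UMIs had 1.18% of the list in WT and 1.14% in 6PGDKO. Ccl4 had 324 UMIs in 13 of 40 WT cells and 179 UMIs in 24 of 60 6PGDKO cells, a ratio of -1.25 (-1.52 to -0.98). In WT, 2 cells held 117 and 111 of these UMIs, and the median cell had 0 in both libraries. Ccl3 had 335 UMIs in 24 WT cells and 302 in 37 6PGDKO cells, a ratio of -0.54 (-0.77 to -0.31). Without the 2 top cells of each library Ccl4 gave -0.25 (-0.66 to 0.16), so its difference rested on those cells, and without the top cell Ccl3 gave -0.42 (-0.69 to -0.16). Both alternatives were chosen after the data were seen. Siglecf had 13 UMIs in 10 WT cells and 8 in 5 6PGDKO cells, a ratio of -1.09 whose interval held 0 (-2.57 to 0.29), and -1.47 (-3.03 to -0.04) without the deep barcodes. Tnfrsf23, a decoy receptor for TRAIL, went the other way with 9 and 33 UMIs, a ratio of 1.48 (0.39 to 2.73), as did the protease inhibitor Cstb at 0.83 (0.48 to 1.19) and the stress transcription factor Atf3 at 0.60 (0.26 to 0.95). Cd274, the gene of PD-L1, gave -0.24 (-0.85 to 0.37) and Vegfa -0.51 (-1.04 to 0.02), or -0.57 (-1.12 to -0.03) without the deep barcodes.

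None of the 11 PMN-MDSC genes with at least 20 UMIs passed 2-fold in either direction, with a median of 0.10. Over all 1761 genes 14.6% did. Here and in the short lists that follow, finding none past 2-fold therefore says little about the genes listed. Il1b, the gene of the inflammatory cytokine IL-1 beta, had 1303 and 1725 UMIs, 11103 and 11201 CPM, a ratio of 0.01 (-0.09 to 0.12), and 0.10 (-0.01 to 0.21) without the deep barcodes. Wfdc17 was the lowest of the 11 PMN-MDSC genes. Slc27a2, which encodes a fatty acid transporter of PMN-MDSCs, had 0 UMIs in both libraries.

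Of 8 chemokines, 2 were at least 2-fold higher and 3 at least 2-fold lower. Cxcl2 was the most abundant at 18874 and 21526 CPM, found in 39 of 40 WT and 57 of 60 6PGDKO cells, with a median of 44.5 and 40 UMIs per cell and a ratio of 0.19 (0.11 to 0.27), or 0.11 (0.03 to 0.19) without the deep barcodes. Single cells reached 196 UMIs in WT and 208 in 6PGDKO, so the libraries overlapped. Cxcl1, another Cxcr2 ligand, had 0 UMIs in WT and 23 in 5 6PGDKO cells, and set against 3 UMIs in WT the counted UMIs gave a log2 ratio of 2.55. Its exact 95% interval began at 2.13, and at 1.47 without the top cell. Cxcl10, an interferon-induced chemokine for T cells, had 49 UMIs in 4 WT cells, 28 of them in 1 cell, and 28 UMIs in 9 6PGDKO cells, a ratio of -1.20 (-1.92 to -0.50), and -0.96 (-2.05 to 0.08) without the top cell of each library. Cxcl16 had 33 WT UMIs, 31 of them in 1 cell, so that its ratio of -1.35 became 1.85 without the top cell of each library and 1.75 (-0.48 to 4.98) without the deep barcodes. Ccl6 gave 0.59 (0.21 to 0.98), found in 17 of 40 and 38 of 60 cells. Among receptors, Ccrl2, a non-signaling chemerin receptor, gave -0.37 (-0.57 to -0.17) and the CC chemokine receptor gene Ccr1 0.41 (0.03 to 0.80), and none of 7 passed 2-fold. Without the deep barcodes Ccr1 gave 0.24 with an interval that held 0 (-0.17 to 0.65). Among 9 cytokine and IL-1 regulator genes none passed 2-fold, and Il1rn, the IL-1 receptor antagonist, gave -0.39 (-0.74 to -0.04).

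The oxidase and pentose phosphate lists bear on the enzyme targeted. Of 5 oxidase genes with at least 20 UMIs, 1 lay above 0 and 4 below, none past 2-fold, with a median of -0.39. Ncf1, the p47 subunit, gave -0.51 (-1.12 to 0.09) and Rac2 -0.39 (-0.94 to 0.16). Cybb, the catalytic subunit, had 10 and 4 UMIs, and 1 and 3 without the deep barcodes. In the pentose phosphate pathway only Taldo1 and the transketolase gene Tkt reached 20 UMIs, with ratios of 0.18 (-0.22 to 0.58) and 0.42 (-0.94 to 1.88), and 0.10 (-0.33 to 0.53) and 0.69 (-0.92 to 2.55) without the deep barcodes. The oxidative branch was near the limit of counting, with 2 UMIs of G6pdx in each library, 8 and 7 of Pgls and the 8 and 4 of Pgd given above. The 8 genes together gave 0.01 (-0.33 to 0.36).

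Of 14 glycolysis genes, 9 lay above 0 and 5 below, and 2 were at least 2-fold higher, Slc2a3 and Tpi1. Tpi1, triose phosphate isomerase, had 12 UMIs in 6 WT and 35 in 13 6PGDKO cells, a ratio of 1.15 (0.17 to 2.23), and 0.84 (-0.15 to 1.93) without the deep barcodes. Ldha, lactate dehydrogenase A, gave 0.70 (0.12 to 1.31) and the lactate exporter Slc16a3 0.65 (0.14 to 1.19), found in 24 of 40 and 38 of 60 cells. Aldoa, Pkm, Eno1 and Pgk1 lay below 0, between -0.14 and -0.54, with intervals that held 0. Without the deep barcodes Pgk1 gave -1.01 (-2.01 to -0.04), Aldoa -0.35 (-0.84 to 0.15) and Pkm -0.27 (-0.78 to 0.24). The list as a whole gave 0.17 (0.01 to 0.33), and 0.05 (-0.13 to 0.23) without the deep barcodes. The hypoxia list gave a sum of -0.18 (-0.43 to 0.07), and -0.37 (-0.63 to -0.10) without them, whereas the median of its 6 genes with at least 20 UMIs was 0.17 with all neutrophils. Without the deep barcodes 5 genes were left, 2 above 0 and 3 below, with a median of -0.27, on the same side of 0 as the sum.

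Among 13 glutathione and NRF2 target genes, 6 lay above and 7 below 0 and only Hmox1 passed 2-fold. Nfe2l2, which encodes NRF2 itself, had 76 UMIs in 34 of 40 WT cells and 173 in 49 of 60 6PGDKO cells, a ratio of 0.79 (0.40 to 1.20). Txnrd1, thioredoxin reductase, gave -0.74 (-1.44 to -0.05), or -0.62 (-1.40 to 0.15) without the deep barcodes, and the cystine transporter Slc7a11, found at 1201 and 1377 CPM, gave 0.20 (-0.12 to 0.51). The genes of the list did not move one way, and the sum gave 0.05 (-0.08 to 0.18). Iron storage genes were among the most abundant transcripts. Ftl1, ferritin light chain, had 4661 CPM in WT and 7448 CPM in 6PGDKO, a ratio of 0.68 (0.53 to 0.83), with a median of 11 and 14 UMIs per cell. Fth1, ferritin heavy chain, had 26150 and 31396 CPM, a ratio of 0.26 (0.20 to 0.33), or 0.15 (0.08 to 0.22) without the deep barcodes. Its median was 61.5 UMIs per cell in WT and 58.5 in 6PGDKO. These medians are not scaled to depth, whose median was 2277 UMIs in WT and 2113 in 6PGDKO, so they give no direction against the sum. Both ferritin genes have processed copies in the genome that can take reads from them.

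Of 17 interferon-stimulated genes 12 lay above 0 and 5 below, with a median of 0.14, and 2 were at least 2-fold higher, Ifit2 with 6 and 17 UMIs and Oas3 with 5 and 17, both with intervals that held 0. Rsad2, the antiviral viperin, had 88 UMIs in 16 of 40 WT cells and 190 in 34 of 60 6PGDKO cells, a ratio of 0.72 (0.35 to 1.10). Gbp2 gave -0.83 (-1.59 to -0.09). Isg15, the most abundant, gave 0.14 (-0.10 to 0.37), and 0.06 (-0.18 to 0.31) without the deep barcodes. The list's sum was 0.17 (0.05 to 0.29), and 0.08 (-0.04 to 0.20) without the deep barcodes.

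Of 15 immediate early and heat shock genes, 9 lay above and 6 below 0. Jund gave 0.44 (0.11 to 0.78), and 0.85 (0.47 to 1.24) without the deep barcodes, Fos 0.49 (0.20 to 0.78) and Junb 0.34 (0.15 to 0.54). Hspa1a and Hsp90aa1, heat shock chaperones, passed 2-fold downward with -1.32 and -1.19, and gave 0.53 and -0.29 without the deep barcodes, where their WT UMIs went from 93 to 7 and from 104 to 37. Hspa1a is nearly identical to Hspa1b.

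Of 10 survival and apoptosis genes 4 lay above and 6 below 0, none past 2-fold, with a median of -0.32. The anti-apoptotic Bcl2a1 genes all lay below, Bcl2a1b at -0.51 (-0.89 to -0.14) and Bcl2a1a at -0.90 (-1.68 to -0.14), though these copies are nearly identical and share reads. Mcl1, on which neutrophil survival depends, gave 0.11 (-0.12 to 0.35), and -0.01 (-0.25 to 0.24) without the deep barcodes. Of 12 microbial sensing and Fc receptor genes 9 lay above 0, none past 2-fold, with Trem1 at 0.42 (0.05 to 0.80) and Tyrobp, the adaptor of Trem1, at 0.14 (-0.01 to 0.30). Without the deep barcodes Trem1 gave 0.28 (-0.10 to 0.66) and Tyrobp -0.02 (-0.18 to 0.14), both with intervals that held 0. Of 9 checkpoint and inhibitory genes only Havcr2, the gene of TIM-3, passed 2-fold, at -1.33 (-2.47 to -0.26) from 23 WT UMIs, 12 of them in 1 cell, and 12 6PGDKO UMIs, and at -0.94 (-2.45 to 0.51) without the top cell of each library and -1.45 (-3.17 to 0.11) without the deep barcodes. Among 11 myeloid transcription factors only Rel did, while Cebpb, the C/EBP factor of mature and emergency granulopoiesis, gave 0.28 (0.14 to 0.42) at 5547 and 6740 CPM, and 0.17 (0.02 to 0.31) without the deep barcodes. Of 7 adhesion and migration genes none passed 2-fold, and Itgam, the gene of CD11b, gave -0.19 (-0.84 to 0.47).

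For 3 lists the direction rested on the 5 deep barcodes. The MHC class II genes gave -0.35 (-0.48 to -0.23) with them and 0.27 (-0.08 to 0.63) without, as their UMIs went from 996 to 105 in WT and from 1023 to 189 in 6PGDKO. Cell cycle genes gave -0.55 (-0.79 to -0.30) and 0.33 (0.02 to 0.65), and all 11 Mki67 UMIs of WT lay in 1 cell. The genes past 2-fold in these lists were H2-DMb1 (-3.30) and H2-Aa (-1.11), which serve antigen presentation, and Tubb5 (-3.01) and Stmn1 (-1.10), which act on microtubules, with 1, 24, 0 and 0 WT UMIs left without the deep barcodes. The mitochondrially encoded genes gave -0.64 (-0.73 to -0.55) and 0.23 (0.11 to 0.35), with mt-Nd3 at -2.29 and -0.20. The remaining lists kept their sign in the plot of list ratios, except chemokines (0.03 and -0.05), the pentose phosphate pathway (0.01 and -0.00) and glutathione and NRF2 targets (0.05 and -0.01), which lay near 0 in both. The median over genes and the sum over UMIs differed in sign for tertiary granule genes (0.03 and -0.20), chemokines (-0.18 and 0.03), chemoattractant receptors (0.15 and -0.10), the hypoxia list, glutathione and NRF2 targets (-0.11 and 0.05) and myeloid transcription factors (-0.00 and 0.05). The tertiary granule list holds Lyz2, the locus that carries the Cre. Lyz2 gave 59 of the list's 561 UMIs in WT and 10 of 639 in 6PGDKO. The sum of the list without Lyz2 was not computed.

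**Figure D5:**
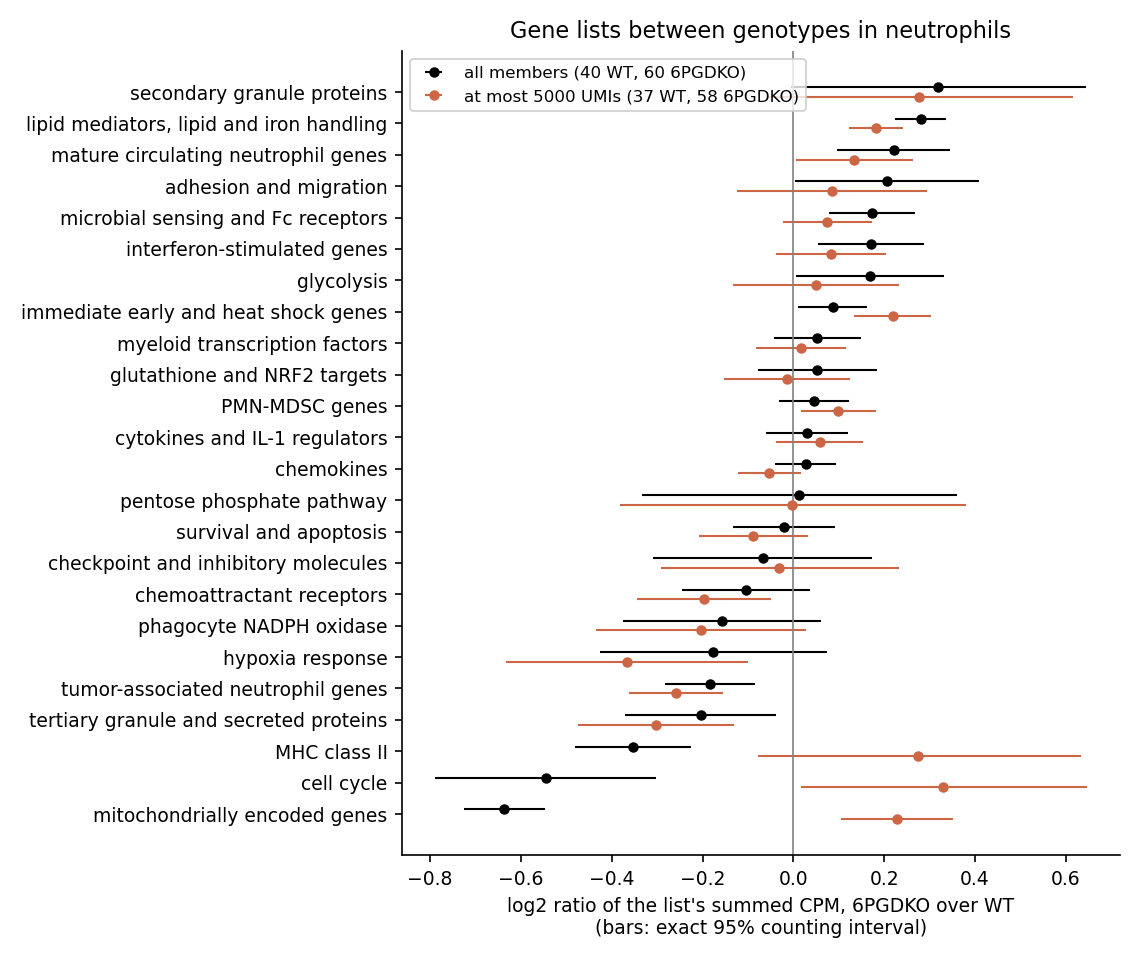
Log2 ratio of the summed CPM of each gene list, 6PGDKO over WT (x axis), with bars for the exact 95% counting interval, for all 40 WT and 60 6PGDKO neutrophils (black) and for the 37 and 58 of at most 5000 UMIs (orange). The primary granule list, at 0 UMIs, is left out, and the MHC class II, cell cycle and mitochondrial lists move from below to above 0 when the deep barcodes are left out.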

How the data were processed

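Leukocytes of 1 WT and 1 6PGDKO pool were profiled on the 10x Genomics platform. The authors deposited, per library, a filtered matrix of UMI counts. The submitters' processing notes name Cell Ranger 6.1.2, Seurat and the mm10 build. The limits on genes and mitochondrial UMIs follow the study. The neutrophil rule and all gene lists were chosen with earlier results of these data known. No doublet caller was run.

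UMIs were summed over the neutrophils of a library and divided by their total (CPM). Ratios carry exact conditional binomial intervals and shares exact Clopper-Pearson intervals, both at 95% and covering counting error only. Genes needed 20 UMIs over both libraries, or 50 against the gates, and a gene past 2-fold was counted. Named genes were Pgd, Lyz2, the neutrophil markers, the 12 furthest in each direction with at least 30 UMIs in at least 10 cells and no cell above 25%, the genes past 2-fold and up to 4 with most UMIs in each list, and the 15 furthest above both gates, where fewer than 3 UMIs in a gate were set to 3. Other list genes were named after their values were seen. A gene at 0 in 1 library was set against 3 UMIs. The scripts were tested on simulated data. Python 3.11.15, numpy 2.4.6, scipy 1.17.1, pandas 2.3.3 and matplotlib 3.10.9 were used. Positions and promoters come from RefSeq GRCm38.p6, matched by symbol. Some genes that these rules name are not reported here.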

Additional observations from a re-analysis of the deposited data

How the results depend on the processing

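With 1 library per genotype no replicate could be left out. No paired analysis was possible because there was 1 library per genotype. The alternatives without barcodes over 5000 UMIs, and without the top cells of a gene or list, were chosen after seeing the data. The WT share of neutrophils was 0.701% with at least 100 S100 UMIs, 0.785% with at least 5 UMIs of Csf3r, Retnlg and G0s2, and 3.87% of barcodes with at most 1 T and 1 B cell UMI. The 6PGDKO share was 1.25% with at least 100 S100 UMIs and 5.02% of barcodes with at most 1 T and 1 B cell UMI. With at least 5 UMIs of Csf3r, Retnlg and G0s2, 49 of 2798 6PGDKO barcodes were neutrophils. Against 113 higher genes among 1761, 49 were counted after thinning each cell to 1000 UMIs (755 genes), 27 with at least 50 UMIs (777) and 623 with at least 1 UMI in each library (6364). Against 144 lower genes, 47 were counted after thinning, 80 without the 5 cells of most UMIs (1299), 72 without barcodes over 5000 UMIs (1400), 31 with at least 50 UMIs and 1376 with at least 1 UMI in each library. Higher genes made up 6.42% of those tested with all neutrophils and 7.64% without barcodes over 5000 UMIs, and lower genes 8.18% and 5.14%. How far the number of genes tested moved these counts was not tested. Of the gene lists, 14 had a median above 0, and 8 after thinning. Cxcl16 went from -1.35 to 1.85 without its top cell in each library. The tumor-associated list went from -0.18 to 0.23 without its 3 top cells in each library. Among list genes past 2-fold, Hspa1a (-1.32 to 0.53) and Cxcl16 (to 1.75) also changed sign without barcodes over 5000 UMIs. Log2 ratios scaled by total UMIs differed by -0.04 from those scaled by the median of ratios, which were thus slightly higher.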
